A study of Mus musculus with 18 samples.

Results

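The genes described here are 35 genes of the endoplasmic reticulum (ER) folding machinery, the unfolded protein response and ER-associated degradation, measured by RNA-seq in mouse bone-marrow-derived macrophages. They were taken as the rows of the count table whose gene name equalled a listed symbol. All 35 were found among the 30530 genes of the table, and all 35 were among the 12741 genes that passed the filter on low counts. The rule used gene names and no measured value, but the genes were chosen with earlier results of these data known. By role, 4 genes formed the sensor group, the sensors Atf6, Ern1 and Eif2ak3 with the transcription factor Xbp1. The others were 11 chaperones and co-chaperones, 4 protein disulfide isomerases, 8 degradation genes and 8 genes of protein entry into the ER and first processing.

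The macrophages were grown from bone marrow of C57BL/6 mice (B6) or of mice lacking Ch25h (Ch25h-/-), the enzyme that makes 25-hydroxycholesterol (25HC) from cholesterol. Each of 6 groups held 3 libraries, numbered by mouse. B6 cells were left untreated or were given 5 µM 25HC for 18 h, and each of these was either left at rest or stimulated with 300 ng/mL Pam3CSK4 (PAM3), a synthetic lipopeptide that activates TLR1/TLR2. Ch25h-/- cells received no 25HC and were at rest or stimulated. The labels give stimulation time as 18 with PAM3 and 0 without it, with no unit, so added PAM3 and longer culture cannot be told apart here. Mouse age was not given in the sources used here. The same untreated B6 libraries serve in several of the comparisons below.

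Proteins that enter the ER are threaded through the Sec61 channel, trimmed, glycosylated, folded by chaperones such as BiP (Hspa5) and calreticulin (Calr), and cross-linked by disulfide isomerases. When unfolded protein builds up, the sensors IRE1 (Ern1), PERK (Eif2ak3) and ATF6 raise chaperone and degradation genes, IRE1 by splicing the mRNA of Xbp1 and PERK by phosphorylating eIF2-alpha, which favours translation of ATF4. Activated macrophages secrete large amounts of cytokine and are known to engage parts of this response. The table counts reads per gene, so it holds neither the splicing of Xbp1 nor the activity of the sensor proteins.

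Library totals ran from 14.04 to 150.4 M counts. All 6 macrophage markers looked at reached 1 CPM, the unit of all levels here (counts scaled to a common library size), in every library. None of the 7 B and plasma cell, 5 T cell, 6 neutrophil, 6 fibroblast or 4 mast cell markers did, and 2 T cell and 3 mast cell markers were at 0 throughout. Ch25h, the targeted gene, was at 3.16 to 20.4 CPM in untreated B6 cells at rest, 1.66 to 3.55 CPM in untreated B6 cells with PAM3 and 0 to 0.119 CPM in the Ch25h-/- libraries. In every group 1 mouse was lowest for most of the 35 genes. At rest this was mouse 2, lowest for 27 genes in untreated B6 cells, 25 in Ch25h-/- cells and 23 in cells given 25HC. With PAM3 it was mouse 1, lowest for 20 genes in untreated B6 cells and for 23 in each other group. In bulk RNA, fewer cells of a type and less RNA per cell cannot be told apart. The p-values measure the spread among these 3 cultures per group.

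The promoters of this family are known for the ER stress response element (ERSE), the letters CCAAT and CCACG with 9 bases of any kind between them, and for the shorter ERSE-II, ATTGG and CCACG with 1 base of any kind between them. A window from 250 bases before to 50 bases after the start site was given by RefSeq (GRCm38.p6) for 28 of the 35 genes. The windows of Atf6, Hyou1, Manf, Derl1, Sec61a1, Spcs3 and Ostc were not in that table. Searched on both strands, 8 of the 28 genes held an ERSE (28.6%), against 39 of 32851 promoters of that length (0.119%). An ERSE-II was in 2 of the 28 (7.14%), against 0.0365% of all promoters. The 2 motifs share the letters CCACG but did not fall in the same window. The elements are shown because they were more frequent in these windows than in all promoters, though most of the windows held neither. They are read 5′ to 3′ in the orientation of the motif, with its fixed letters in capitals.
Calr: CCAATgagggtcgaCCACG
Canx: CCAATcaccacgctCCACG
Creld2: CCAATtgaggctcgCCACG
Dnajb11: ATTGGcCCACG
Dnajc3: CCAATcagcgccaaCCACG
Herpud1: ATTGGgCCACG
Hsp90b1: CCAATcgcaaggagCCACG
Hsp90b1: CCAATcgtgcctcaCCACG
Hspa5: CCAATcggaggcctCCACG
Pdia6: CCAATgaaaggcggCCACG
Syvn1: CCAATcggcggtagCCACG
Hsp90b1 carried 2 ERSEs, 212 and 107 bases before its start, and the ERSE of Hspa5 began 65 bases before the start. The ERSE-II of Dnajb11 lay 7 bases after the start. The pentamer CCACG alone was in 23 of 28 member windows and in 32.8% of all promoters. The core TGACGTGG was in 0 of 28 windows (0.676% of all promoters), and TGACGTCA was also in 0 of 28 (1.79%). TGATGCAA was in the Herpud1 window alone among the 28 (0.895% of all promoters). A match is a description of these letters and says nothing on whether a factor was bound.

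The 250 bases before the start are given for 4 genes whose RNA levels differ in pattern below, with the element in capitals on the gene's own strand. Hspa5 lies at chr2:34771840-34772089 on the plus strand, Creld2 at chr15:88819396-88819645 on the plus strand, Calr at chr8:84846932-84847181 on the minus strand and Herpud1 at chr8:94386179-94386428 on the plus strand of GRCm38. In Creld2 and Calr the element runs against the gene and so reads as its reverse complement.
Hspa5: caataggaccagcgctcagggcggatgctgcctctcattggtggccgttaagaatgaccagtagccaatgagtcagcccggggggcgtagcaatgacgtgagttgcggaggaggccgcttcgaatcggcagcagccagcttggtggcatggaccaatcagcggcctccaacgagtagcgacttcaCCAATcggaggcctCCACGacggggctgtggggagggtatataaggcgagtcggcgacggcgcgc
Creld2: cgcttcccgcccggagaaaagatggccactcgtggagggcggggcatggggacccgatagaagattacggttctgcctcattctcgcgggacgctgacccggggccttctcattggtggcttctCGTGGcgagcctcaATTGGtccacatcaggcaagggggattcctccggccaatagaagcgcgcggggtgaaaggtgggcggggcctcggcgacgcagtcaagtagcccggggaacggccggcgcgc
Calr: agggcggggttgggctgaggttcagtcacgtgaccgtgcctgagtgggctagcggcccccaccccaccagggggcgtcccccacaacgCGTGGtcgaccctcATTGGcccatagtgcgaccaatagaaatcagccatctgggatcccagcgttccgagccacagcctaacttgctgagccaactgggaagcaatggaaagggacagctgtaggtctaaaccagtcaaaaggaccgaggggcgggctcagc
Herpud1: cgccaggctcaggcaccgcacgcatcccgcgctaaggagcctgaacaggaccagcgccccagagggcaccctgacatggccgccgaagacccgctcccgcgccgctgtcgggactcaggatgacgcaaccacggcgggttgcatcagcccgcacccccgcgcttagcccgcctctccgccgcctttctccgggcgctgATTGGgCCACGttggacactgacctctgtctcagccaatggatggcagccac

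Compared per kilobase of exon, the highest mean of the 35 genes in untreated B6 macrophages at rest was that of Calr, the calcium-binding lectin chaperone, at 373 ± 72.7 CPM per kb (SD, n = 3). Next came Pdia3 at 268 ± 35.9, Hspa5 at 263 ± 71.4, Hsp90b1 (GRP94) at 251 ± 59.0 and P4hb at 202 ± 12.03 CPM per kb. Within 1 SD of the means, Calr overlapped Pdia3, Hspa5 and Hsp90b1, and these 3 overlapped each other. P4hb overlapped Hspa5 and Hsp90b1 and lay below Calr and Pdia3. Apart from P4hb below Calr and Pdia3, the order of these 5 genes is not resolved. The lowest was Sec61g, the gamma subunit of the channel, at 1.08 CPM per kb, and it was the lowest in all 6 groups. In 25HC-treated cells with PAM3 the highest means were those of P4hb at 521 ± 52.9 and Hspa5 at 498 ± 35.9 CPM per kb, whose spreads overlap. Hsp90b1 at 335 ± 29.6 and Calr at 329 ± 41.2 CPM per kb lay below both by more than their SDs and overlapped each other. All other levels below are CPM, which are compared between libraries and not between genes.

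**Figure D1:**
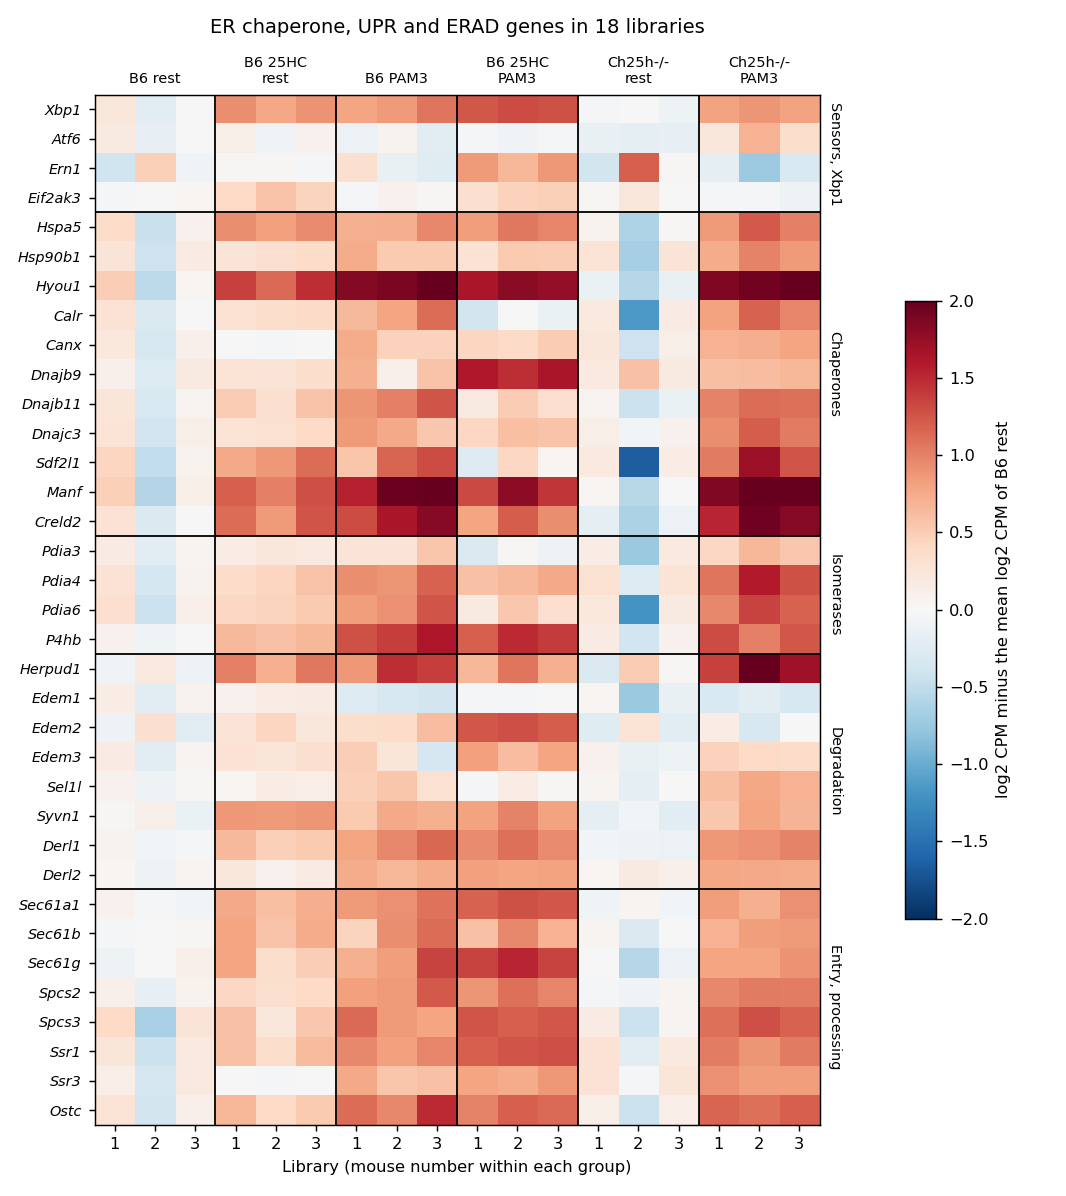
Each row is 1 of the 35 genes, grouped by role, and each column 1 of 18 libraries; colour is log2 CPM minus the gene's mean log2 CPM in untreated B6 cells at rest, with the scale ending at 2 in either direction. At rest mouse 2 is the lowest of its group in 27 rows for untreated B6, 25 for Ch25h-/- and 23 for cells given 25HC. Mouse 1 is the lowest in 20 to 23 rows of each PAM3 group. Most chaperone rows are red in the untreated B6 and Ch25h-/- PAM3 groups.

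The first question was what 25HC did to resting B6 macrophages. 25HC raised many of the 35 genes: 17 of 35 genes were higher and 0 were lower at an adjusted p below 0.05, by edgeR's quasi-likelihood test, adjusted by Benjamini-Hochberg across the 12741 genes. Over all tested genes 14.8% were higher and 11.4% lower. The median log2 fold change of the 35 was 0.44, against -0.01 for all tested genes. At an unadjusted p below 0.05 the count lower was also 0, and it was 0 by DESeq2. The libraries of the groups did not overlap, with 25HC higher, for 25 genes, and with 25HC lower for 0, patterns that 22.2% and 20.2% of all tested genes showed.

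Of the sensor group, the transcription factor Xbp1 and the sensor Eif2ak3 rose, and the sensors Atf6 and Ern1 did not pass the test. Xbp1 stood at 163, 120.2 and 140.2 CPM in untreated mice 1, 2 and 3, and at 268, 238 and 260.2 CPM with 25HC. Every treated library was above every untreated one, a log2 change of 0.86 ± 0.11 (SE; edgeR adjusted p = 0.000134). Eif2ak3, which encodes PERK, went from 37.5, 39.03 and 39.7 CPM to 51.2, 57.3 and 52.9 CPM, a log2 change of 0.47 ± 0.08 (edgeR adjusted p = 0.00108). Its groups did not overlap either. Atf6, the membrane-tethered transcription factor, read 228, 179 and 199.5 CPM untreated and 218, 192 and 213 CPM with 25HC. Ern1, which encodes IRE1, read 70.7, 129 and 88.9 CPM untreated and 95.1, 94.9 and 90.5 CPM with 25HC. Both pairs of groups overlapped, and the 95% intervals of the log2 change were -0.23 to 0.31 for Atf6 and -0.72 to 0.63 for Ern1.

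Among the chaperones 5 of 11 rose (45.5%), against 14.8% of all tested genes. Hspa5, the master chaperone BiP, was at 1396, 795 and 1150.0 CPM untreated and at 2062, 1921 and 2098 CPM with 25HC. The groups did not overlap, with mouse 2 lowest among the untreated, and the log2 change was 0.86 ± 0.20 (edgeR adjusted p = 0.00604). Hyou1, the nucleotide exchange factor of BiP, rose from 170.5, 83.95 and 124 CPM to 313, 267 and 337 CPM, a 2.43-fold change (edgeR adjusted p = 0.00047). This was the largest rise of the 35 genes here. Creld2, an ER-resident disulfide isomerase-like protein induced by ER stress, rose from 30.3, 20.3 and 25.1 CPM to 53.8, 45.1 and 59.8 CPM, 2.10-fold (edgeR adjusted p = 0.00107). Manf, a secreted ER stress protein, rose from 77.3, 36.9 and 60.2 CPM to 128, 112 and 136 CPM (log2 1.11 ± 0.23, edgeR adjusted p = 0.00351). In all 3 genes every treated library exceeded every untreated one. Dnajb11, a BiP co-chaperone, was the fifth, at log2 0.45 ± 0.15 (edgeR adjusted p = 0.0397). Hsp90b1, Calr, Canx, Dnajb9, Dnajc3 and Sdf2l1 did not pass the test, with log2 values from -0.03 for Canx to 0.87 for Sdf2l1 (edgeR adjusted p = 0.0952).

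Of the 4 disulfide isomerases 1 rose (25%), against 14.8% of all tested genes. P4hb, the abundant isomerase PDI, was at 612, 543 and 577 CPM untreated and at 900.1, 865 and 919 CPM with 25HC, with no overlap (log2 0.63 ± 0.15, edgeR adjusted p = 0.00592). Pdia3, Pdia4 and Pdia6 had log2 values of 0.18, 0.44 and 0.43 and did not pass.

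Of the 8 degradation genes 3 rose (37.5%), against 14.8% of all tested genes, and all 3 encode parts of the HRD1 ubiquitin ligase complex. Syvn1, the ubiquitin ligase HRD1, rose from 60.3, 64.5 and 54.5 CPM to 109, 108 and 110.1 CPM, with a log2 change of 0.86 ± 0.10 and the smallest p of the 35 genes (edgeR adjusted p = 4.3e-05). Herpud1, a membrane organiser of that ligase complex, rose from 50.7, 61.2 and 49.2 CPM to 107, 87.6 and 111 CPM (log2 0.93 ± 0.23, edgeR adjusted p = 0.00848). Derl1, a derlin of the retrotranslocation channel, rose from 136, 125 and 127 CPM to 204, 179 and 186 CPM (log2 0.55 ± 0.10, edgeR adjusted p = 0.00115). None of these 3 pairs of groups overlapped. Sel1l, the partner that HRD1 needs, read 338, 296 and 324 CPM untreated and 327, 355 and 351 CPM with 25HC, which overlap. The mannosidase-like genes Edem1, Edem2 and Edem3, with Derl2, had log2 values from 0.13 to 0.29 and did not pass.

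Of the 8 entry genes 6 rose (75%), against 14.8% of all tested genes. Sec61a1, the pore subunit, rose from 174, 159 and 158 CPM to 277, 249 and 270.1 CPM (log2 0.70 ± 0.09, edgeR adjusted p = 0.000162). Sec61b rose from 28.96, 29.6 and 29.8 CPM to 50.7, 43.8 and 49.5 CPM (log2 0.70 ± 0.15, edgeR adjusted p = 0.00327). Neither pair overlapped. Sec61g, the signal peptidase subunit Spcs2, the translocon-associated Ssr1 and the oligosaccharyltransferase subunit Ostc rose by log2 0.37 to 0.55 (edgeR adjusted p = 0.0216 to 0.0406). Spcs3 and Ssr3 had log2 values of 0.40 and -0.03 and did not pass.

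The weakest of these 17 calls did not hold when single libraries were left out. 12 of the 17 held when each of the 6 libraries was left out in turn. Dnajb11 (edgeR adjusted p = 0.0855 to 0.158) and Ostc (0.0743 to 0.16) lost the call without untreated mouse 2 or 3 or treated mouse 1 or 3. Spcs2 (0.0762 to 0.0899) and Ssr1 (0.102 to 0.117) lost it without untreated mouse 2 or treated mouse 1 or 3, and Sec61g (0.071 to 0.198) without any 1 of 5 libraries, all but treated mouse 2. Hyou1, Hspa5 and Manf held in each case. Without untreated mouse 1, Dnajc3 (0.0379) and Pdia4 (0.0381) passed as well.

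Markers of other cells also differed between these groups. The 7 B and plasma cell markers summed to 4.39 to 5.41 CPM with 25HC and 8.38 to 11.8 CPM without, nearly all of it Cd79b. The 6 neutrophil markers summed to 1.46 to 1.80 and 3.77 to 5.65 CPM, with Ltf, Ngp and Mmp8 each lower with 25HC without overlap. The 5 T cell markers summed to 0.824 to 1.06 and 0.478 to 0.649 CPM, nearly all of it Lck, while Cd3e and Cd3g were at 0. The 6 macrophage markers summed to 7344 to 8380 CPM with 25HC and 9430 to 12079 CPM without. The part of these markers in the results was not tested.

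Of 64 other genes of ER folding, degradation and entry, all tested, 25 were higher, 0 lower and 39 not called with 25HC at rest by the edgeR test, where 14.8% and 11.4% of all tested genes were higher and lower. Of the 64, 2 were lower at an unadjusted p below 0.05, and 1 by DESeq2. The 5 with the smallest p were Srpr, the receptor of the signal recognition particle (103 ± 5.09 to 205 ± 18.8 CPM, SD, n = 3), Creb3, an ER-bound transcription factor (48.5 ± 2.78 to 103 ± 12.5 CPM), Vimp, a retrotranslocation factor (47.0 ± 6.02 to 90.7 ± 8.92 CPM), Stt3a, a catalytic oligosaccharyltransferase subunit (203 ± 21.0 to 341 ± 17.3 CPM), and the redox protein Txndc11 (26.3 ± 5.53 to 50.6 ± 4.72 CPM). All 6 genes listed as outputs of the PERK branch were higher: Atf4, Ddit3, Trib3, Ppp1r15a, Chac1 and Atf3. PERK activity was not measured, and its part in these levels was not tested. Atf4 went from 128, 88.04 and 103 CPM to 402, 283 and 362 CPM, 3.29-fold (edgeR adjusted p = 4.3e-05). Trib3, a pseudokinase target of ATF4, went from 7.76, 5.25 and 5.34 CPM to 85.4, 47.2 and 63.7 CPM, 10.76-fold (edgeR adjusted p = 2.5e-06). Neither pair of groups overlapped.

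**Figure D2:**
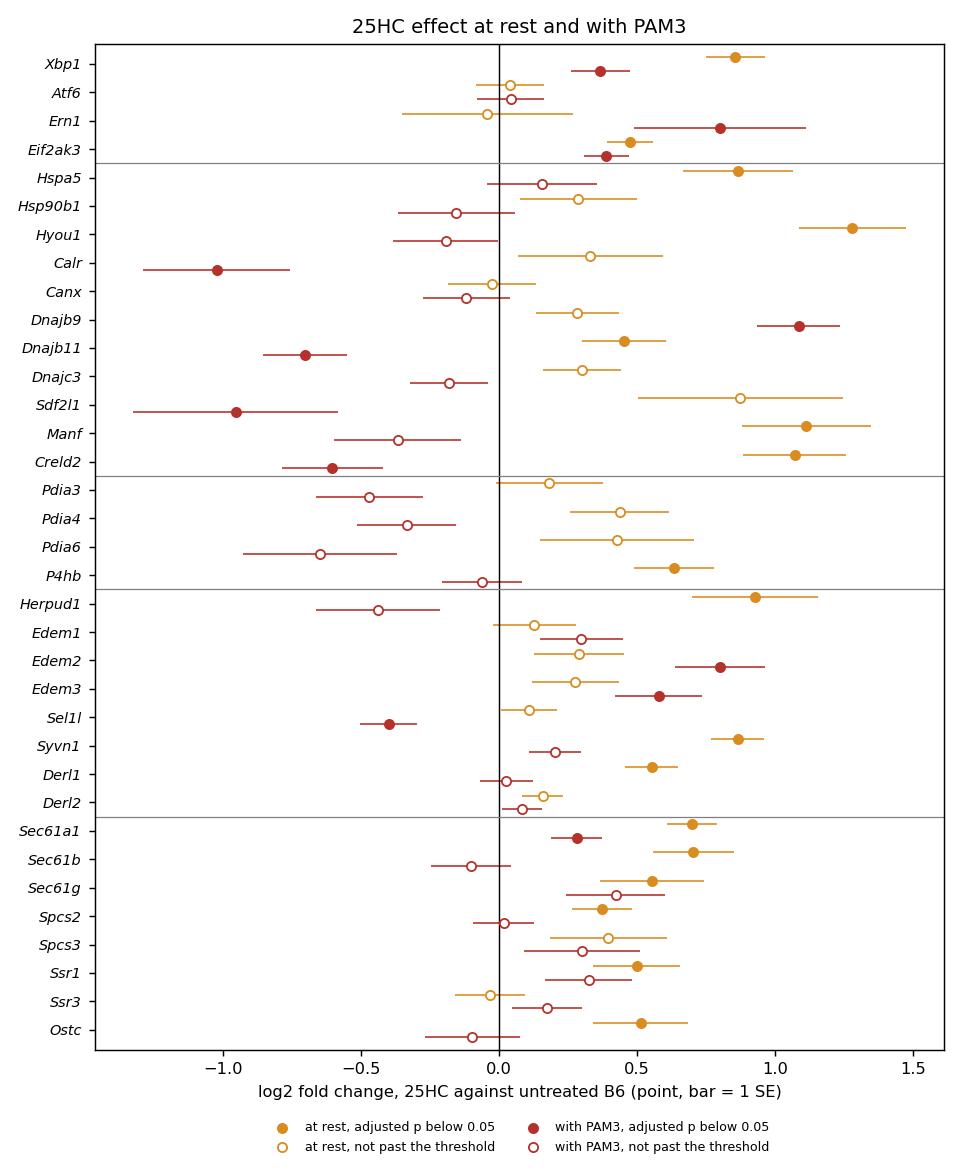
Points are log2 fold changes of 25HC against untreated B6 cells for each of the 35 genes, at rest and with PAM3, bars are 1 SE and filled points have an adjusted p below 0.05. At rest the filled points all lie above 0, while with PAM3 7 lie above 0 and 5 below.

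The second question was how the genes respond to PAM3 in untreated B6 cells. PAM3 raised most of them: 29 of 35 were higher and 0 lower by the edgeR test, while over all tested genes 31.3% were higher and 30.8% lower. The median log2 fold change was 0.86, against 0.00 for all tested genes. At an unadjusted p below 0.05 1 gene was lower, Edem1, which was also the 1 gene lower by DESeq2 (adjusted p = 0.0415). It was at 460.0, 354 and 436 CPM at rest and at 347, 330.2 and 319.8 CPM with PAM3, which do not overlap (log2 -0.33 ± 0.15, edgeR adjusted p = 0.0716). All 11 chaperones, all 8 entry genes, 3 of 4 isomerases and 6 of 8 degradation genes rose, but of the sensor group only Xbp1 did. The PAM3 and resting libraries did not overlap, with PAM3 higher, for 29 genes, and with PAM3 lower for 1, Edem1, patterns that 31.5% and 31.5% of all tested genes showed.

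Xbp1 was at 242, 253 and 295 CPM with PAM3, above all 3 resting libraries (log2 0.90 ± 0.11, edgeR adjusted p = 5.0e-06). Eif2ak3 read 38.2, 41.03 and 39.3 CPM with PAM3 and overlapped the resting values, with a 95% interval of the log2 change of -0.15 to 0.21. Atf6 at 186, 211 and 172 CPM and Ern1 at 116, 84.2 and 79.1 CPM overlapped them too.

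The steepest rises were in 3 proteins known to be induced by ER stress. Hyou1 reached 433, 446 and 499 CPM with PAM3, 3.65-fold over rest (edgeR adjusted p = 1.4e-06). Manf reached 163, 215 and 241 CPM, 3.56-fold (edgeR adjusted p = 1.0e-05). Creld2 reached 61.2, 77.03 and 87.5 CPM, 2.99-fold (edgeR adjusted p = 4.1e-06). The lowest PAM3 library of each lay above the highest resting one. Hspa5 itself rose less, to 1779, 1786 and 2109 CPM (log2 0.76 ± 0.20, edgeR adjusted p = 0.00362). Calr reached 1657, 1822 and 2302 CPM from 1288, 869.5 and 1062 CPM (log2 0.84 ± 0.26, edgeR adjusted p = 0.0116), with no overlap. P4hb reached 1394, 1504 and 1767 CPM, 2.69-fold (edgeR adjusted p = 1.1e-06).

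Of the degradation and entry genes, 4 with small p rose by log2 0.72 to 0.97. Derl1 reached 223, 250.4 and 286 CPM (log2 0.97 ± 0.10, edgeR adjusted p = 8.7e-07). Its relative Derl2 went from 62.96, 57.1 and 63.8 CPM to 103, 96.7 and 103 CPM (log2 0.72 ± 0.07, edgeR adjusted p = 1.1e-06). Sec61a1 reached 296, 308 and 345 CPM (log2 0.95 ± 0.09, edgeR adjusted p = 5.9e-07), the smallest p of the 35. Spcs2 went from 99.6, 82.6 and 97.7 CPM to 164, 167 and 217 CPM (log2 0.97 ± 0.11, edgeR adjusted p = 2.8e-06). None of these groups overlapped. Of the remaining degradation genes, Sel1l rose from 338, 296 and 324 CPM to 443, 468 and 393 CPM (log2 0.45 ± 0.10, edgeR adjusted p = 0.00146), and Edem3 did not pass, at 81.04, 61.99 and 75.6 CPM against 101, 85.5 and 57.1 CPM.

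24 of the 29 calls held without any 1 library. Without untreated resting mouse 2, Hsp90b1, Calr, Dnajb9 and Sdf2l1 lost theirs (edgeR adjusted p = 0.0522 to 0.132), and Edem1 became lower (0.0312). Other single libraries also ended calls: Hsp90b1 (0.0854) and Dnajb9 (0.0664) without PAM3 mouse 1, Calr (0.053) without PAM3 mouse 3, Sdf2l1 (0.0643 to 0.095) without resting mouse 3 or PAM3 mouse 2 or 3, and Edem2 (0.088 to 0.122) without resting mouse 1 or 3 or PAM3 mouse 3. Edem3 passed without PAM3 mouse 3 (0.0169). With the animal as a block Sdf2l1 had an edgeR adjusted p of 0.0512. Among the 64 related genes 38 were higher and 4 lower.

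The third question was whether 25HC acted in the same way in PAM3-stimulated B6 cells. With PAM3 present, 7 of the 35 genes were higher with 25HC and 5 lower, by the edgeR test. Over all tested genes 21.5% were higher and 23.6% lower, so the members' share higher lay near that of all genes. The median log2 fold change was 0.02, against -0.04 for all tested genes. The higher genes were Xbp1, Ern1, Eif2ak3, Dnajb9, Edem2, Edem3 and Sec61a1. The lower ones were Calr, Dnajb11, Sdf2l1, Creld2 and Sel1l. Groups that did not overlap were higher with 25HC for 13 genes and lower for 9, against 28.5% and 29.9% of all tested genes.

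Of the sensor group 3 of 4 rose (75%), against 21.5% of all tested genes. Xbp1 went from 242, 253 and 295 CPM to 333, 347 and 337 CPM (log2 0.37 ± 0.11, edgeR adjusted p = 0.0116). Eif2ak3 went from 38.2, 41.03 and 39.3 CPM to 48.1, 53.2 and 53.8 CPM (log2 0.39 ± 0.08, edgeR adjusted p = 0.00127). Ern1 went from 116, 84.2 and 79.1 CPM to 169, 147 and 170.2 CPM (log2 0.80 ± 0.31, edgeR adjusted p = 0.0479). In each the groups did not overlap. The Ern1 call was lost (edgeR adjusted p = 0.0611 to 0.146) without any 1 of 5 libraries, PAM3 mouse 2 or 3 or 25HC-treated PAM3 mouse 1, 2 or 3, and it was 0.0529 with the animal as a block. Atf6 read 186, 211 and 172 CPM without and 197, 191 and 197 CPM with 25HC, overlapping.

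Of the 11 chaperones 1 rose (9.09%) and 4 fell (36.4%), against 21.5% and 23.6% of all tested genes. Dnajb9, the co-chaperone ERdj4 and a known target of spliced XBP1, rose from 61.7, 40.6 and 56.1 CPM to 114, 104 and 117 CPM, 2.12-fold (edgeR adjusted p = 4.5e-05). Calr fell from 1657, 1822 and 2302 CPM to 822, 1058 and 962 CPM, a log2 change of -1.02 ± 0.27 (edgeR adjusted p = 0.00544). Dnajb11 fell from 201, 220.2 and 264 CPM to 124, 157 and 139 CPM, a log2 change of -0.71 ± 0.15 (edgeR adjusted p = 0.0015). None of these groups overlapped. Creld2 fell from 61.2, 77.03 and 87.5 CPM to 43.3, 57.5 and 47.5 CPM (log2 -0.61 ± 0.18, edgeR adjusted p = 0.0134), and Sdf2l1, a BiP-associated protein, fell by log2 -0.96 ± 0.37 (edgeR adjusted p = 0.0474). Hspa5 was at 1779, 1786 and 2109 CPM without and at 1945, 2247 and 2123 CPM with 25HC, which overlap (log2 0.15 ± 0.20, edgeR adjusted p = 0.552). Hyou1 read 433, 446 and 499 CPM without and 373, 423 and 409 CPM with 25HC (log2 -0.19 ± 0.19, edgeR adjusted p = 0.428). The 4 isomerases did not pass, with log2 values from -0.65 for Pdia6 to -0.06 for P4hb. DESeq2 called Pdia3 (adjusted p = 0.0391) and Pdia6 (0.0478) lower. Pdia3, Pdia4 and Pdia6 were lower with only the 2 groups in the fit (edgeR adjusted p = 0.00929 to 0.0455). They were also lower without mouse 2 of every group (edgeR adjusted p = 0.00104 to 0.0245).

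Of the 8 degradation genes 2 rose (25%) and 1 fell (12.5%), against 21.5% and 23.6% of all tested genes. Edem2 rose from 86.3, 86.6 and 104 CPM to 160.1, 165 and 157 CPM (log2 0.80 ± 0.16, edgeR adjusted p = 0.00093). Edem3 rose from 101, 85.5 and 57.1 CPM to 128, 112 and 125 CPM (log2 0.58 ± 0.16, edgeR adjusted p = 0.00728). Both are mannosidase-like proteins that mark misfolded glycoproteins. Sel1l fell from 443, 468 and 393 CPM to 311, 353 and 324 CPM (log2 -0.40 ± 0.10, edgeR adjusted p = 0.00498). None of the 3 overlapped. Herpud1 read 97.5, 149 and 139 CPM without and 84.4, 113 and 87.6 CPM with 25HC (log2 -0.44 ± 0.22, edgeR adjusted p = 0.123; 0.0279 with the animal as a block). Of the entry genes Sec61a1 rose, from 296, 308 and 345 CPM to 370.1, 397 and 385 CPM (log2 0.28 ± 0.09, edgeR adjusted p = 0.0202), and Ssr1 had an edgeR adjusted p of 0.105 (0.0461 with the block).

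8 of the 12 calls held without any 1 library: Xbp1, Eif2ak3, Calr, Dnajb9, Dnajb11, Edem2, Edem3 and Sel1l. Besides Ern1, Creld2 lost its call (edgeR adjusted p = 0.0675 to 0.0705) without PAM3 mouse 3 or 25HC-treated PAM3 mouse 1, and then 3 genes were lower in place of 5. Sdf2l1 (0.116 to 0.16) lost it without PAM3 mouse 2 or 3 or 25HC-treated PAM3 mouse 1 or 3, and had 0.067 with the block. Sec61a1 (0.0539 to 0.0667) lost it without PAM3 mouse 1 or 2 or 25HC-treated PAM3 mouse 2 or 3. Herpud1 passed as lower without PAM3 mouse 1 (0.0456) and Sec61g as higher without PAM3 mouse 3 (0.0107). With only the 2 groups in the fit 8 genes were lower, and without mouse 2 of every group 10 were. Both fits also added Edem1 and Ssr1 as higher (edgeR adjusted p = 0.019 to 0.0243). Without mouse 2 of every group Sec61a1 lost its call (0.0705). Shares of all tested genes were not set beside these counts.

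The 25HC-treated PAM3 libraries also differed in markers of other cells. The 7 B and plasma cell markers summed to 0.965 to 1.71 CPM, against 7.87 to 17.3 CPM in untreated PAM3 libraries, and Cd79b made up nearly all of both sums. The 6 neutrophil markers summed to 11.95 to 46.3 CPM, against 2.54 to 4.98 CPM. Mmp8 alone carried that difference, at 45.9, 11.1 and 34.4 CPM against 3.60, 0.961 and 1.63 CPM. Camp was lower, at 0.456 to 0.862 against 1.35 to 1.88 CPM, and Elane, Mpo, Ltf and Ngp were at or below 0.253 CPM in both groups. None of the 13 genes reached 1 CPM in every library. The 6 macrophage markers summed to 11249 to 12390 CPM with 25HC and 17732 to 19461 CPM without. Among them Emr1 was at 5694, 6995 and 5686 CPM with 25HC against 11536, 12755 and 12835 CPM without. Csf1r went the other way, at 2589 to 2791 against 2074 to 2302 CPM. The part of all these markers in the results was not tested.

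Among the 64 related genes 19 were higher and 5 lower with 25HC under PAM3, against the same 21.5% and 23.6% of all tested genes. Srpr again had the smallest p, at 182 ± 16.8 CPM without and 377 ± 7.42 CPM with 25HC (SD, n = 3). Sec62, a channel partner, Stt3a, Faf2, a recruiter of the p97 ATPase, and Erlec1, an ER lectin, followed. The 5 lower genes were Erp29 (311 ± 54.4 to 144 ± 21.1 CPM), Sec11c, Uggt1, Ddost and Bcap31, which serve folding, signal cleavage, glycoprotein quality control, glycosylation and membrane protein sorting. Of the 6 genes listed as PERK outputs 5 were higher, all but Chac1, and the part of PERK was again not tested. Ppp1r15a, the phosphatase subunit GADD34 that reverses the PERK signal, went from 26.6, 22.1 and 28.2 CPM to 125, 114 and 115 CPM, 4.60-fold and without overlap (edgeR adjusted p = 2.5e-07).

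**Figure D3:**
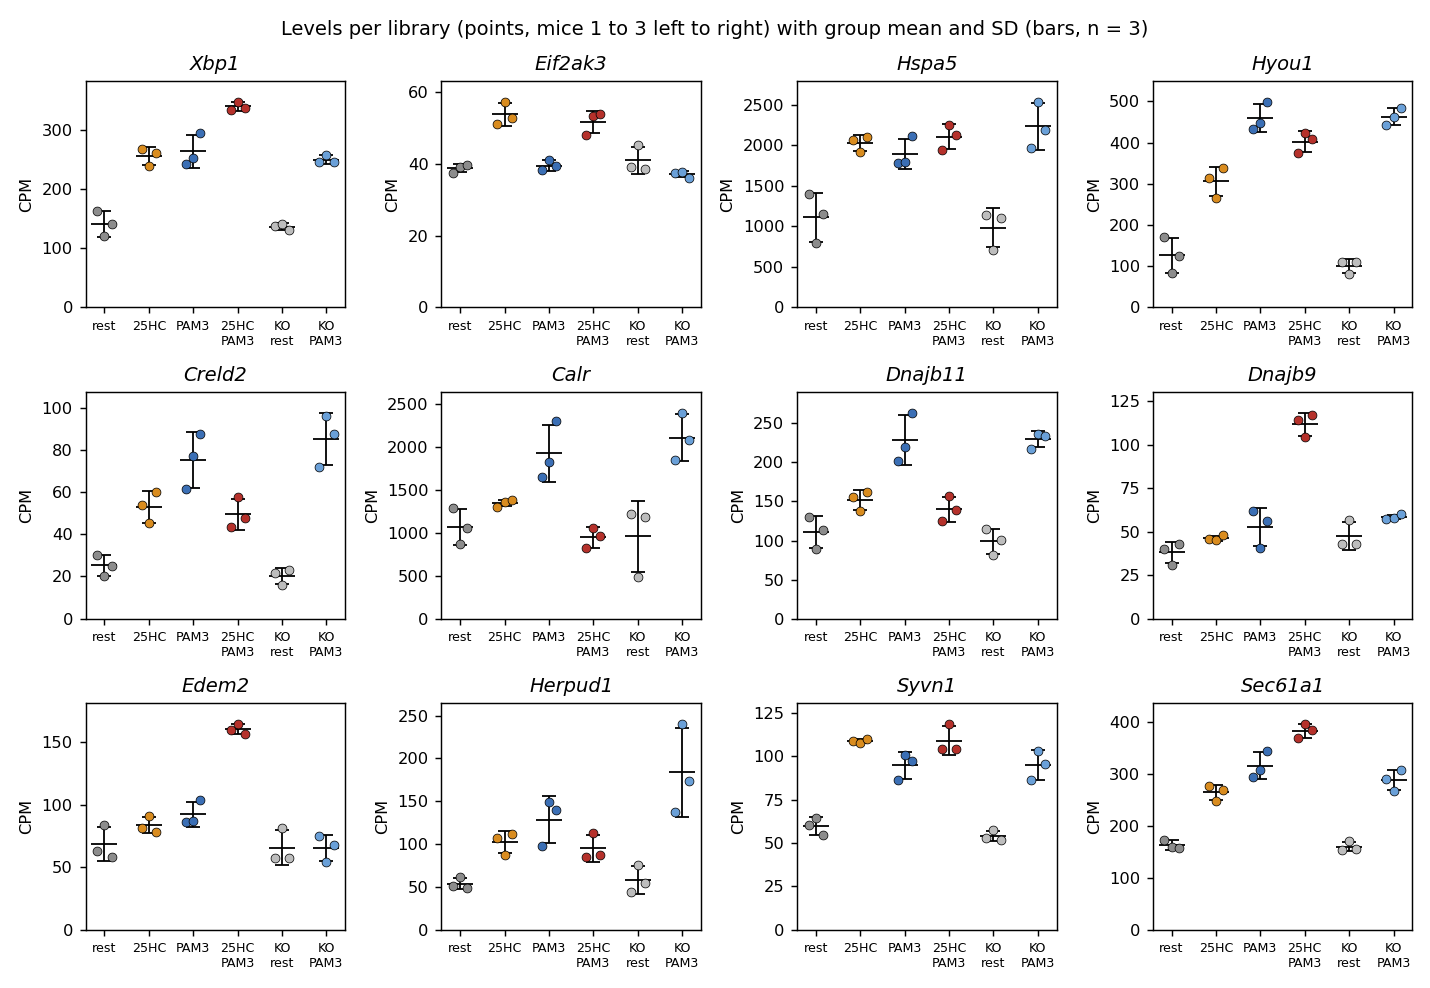
CPM of 12 genes in every library (points, mice 1 to 3 from left to right), with group mean and SD as bars (n = 3) and every axis starting at 0; KO is Ch25h-/-. Calr and Dnajb11 are lower in the 25HC-treated PAM3 libraries than in the untreated PAM3 libraries, while Dnajb9 and Edem2 are higher there than in any other group.

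The difference between the 25HC effect with PAM3 and the 25HC effect at rest was tested as an interaction. It was negative for 15 of 35 genes and positive for 1, Dnajb9, by the edgeR test, against 15.8% negative and 12.5% positive over all tested genes. The median interaction was -0.49 log2 units, against -0.08 for all tested genes. The negative ones included 6 of 11 chaperones, 2 of 4 isomerases, 4 of 8 degradation genes, 2 of 8 entry genes and Xbp1. Only the size of the 25HC effect is compared here, and a negative value covers a smaller rise as well as a turn from rise to fall. The summed level of the 11 chaperones was 3342 to 5335 CPM in untreated cells at rest, 6058 to 6496 CPM with 25HC at rest, 7329 to 8248 CPM with PAM3 and 5883 to 6809 CPM with both. The summed level of the 8 entry genes was 739 to 1031, 1107 to 1247, 1562 to 1738 and 1849.8 to 1937 CPM in the same 4 groups. The chaperone sum was lower with both agents than with PAM3 alone, without overlap, but this rested on Calr. Without Calr the sum of the other chaperones was 5507 to 5947 CPM with PAM3 and 5061 to 5752 CPM with both, which overlap. The entry sum was higher with both agents, without overlap whichever of its 8 genes was left out.

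Creld2 turned direction: its rise of 1.07 log2 units at rest stood against -0.61 with PAM3, an interaction of -1.68 ± 0.26 (edgeR adjusted p = 0.000734), the smallest p of the 35. Dnajb11 did the same, with an interaction of -1.16 ± 0.22 (edgeR adjusted p = 0.00198). The Creld2 fall with PAM3 and the Dnajb11 rise at rest each lost the call without some single libraries. Both interactions held when each library was left out in turn. Hyou1 rose at rest and was at -0.19 with PAM3, an interaction of -1.47 ± 0.27 (edgeR adjusted p = 0.00185). Manf had -1.48 ± 0.33 (edgeR adjusted p = 0.00513) and Herpud1 -1.36 ± 0.32 (edgeR adjusted p = 0.00688). For these 3, 25HC raised the level at rest and the groups did not differ past the threshold with PAM3.

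Calr had no call at rest and fell with PAM3, an interaction of -1.36 ± 0.37 (edgeR adjusted p = 0.0155). Syvn1 rose at rest and was at 86.1, 101 and 97.4 CPM without and 104, 119 and 104 CPM with 25HC under PAM3 (interaction -0.66 ± 0.14, edgeR adjusted p = 0.0033). Sec61b was at 40.3, 56.1 and 63.9 CPM without and 44.4, 57.4 and 47.6 CPM with 25HC under PAM3 (interaction -0.81 ± 0.21, edgeR adjusted p = 0.0107). Derl1 was at 223, 250.4 and 286 CPM without and 248, 277 and 248 CPM with 25HC (interaction -0.53 ± 0.14, edgeR adjusted p = 0.0116). Sec61b and Derl1 overlapped under PAM3 and had not overlapped at rest. Dnajb9 ran the other way, at 0.80 ± 0.21 (edgeR adjusted p = 0.0128). Eif2ak3 had nearly the same effect in both settings, an interaction of -0.09 with a 95% interval of -0.34 to 0.17, and Hspa5 had -0.71 with an edgeR adjusted p of 0.0692.

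10 of the 16 interactions held without any 1 of 12 libraries: Hyou1, Calr, Dnajb9, Dnajb11, Manf, Creld2, Herpud1, Syvn1, Derl1 and Sec61b. Without 25HC-treated PAM3 mouse 1, 9 were negative, and Xbp1, Sdf2l1, Pdia4, P4hb, Sel1l and Sec61a1 then had edgeR adjusted p-values of 0.0544 to 0.0795. P4hb (0.0577) was also lost without PAM3 mouse 3 and Sel1l (0.0514) without PAM3 mouse 2. Xbp1 (0.0531 to 0.0683) was also lost without untreated resting mouse 2 or 3, 25HC-treated resting mouse 1 or 3, PAM3 mouse 3 or 25HC-treated PAM3 mouse 3. Sec61a1 (0.0564 to 0.0653) was lost without the same libraries as Xbp1 except untreated resting mouse 2. Pdia4 (0.0534 to 0.085) was lost without untreated resting mouse 2 or 3, 25HC-treated resting mouse 3, PAM3 mouse 3 or 25HC-treated PAM3 mouse 2 or 3. Without untreated resting mouse 1, 19 were negative, with Hspa5, Dnajc3, Pdia6 and Ostc added (0.0281 to 0.0395), and without PAM3 mouse 1 Pdia6 (0.0486) and Spcs2 (0.0457) were added. With the animal as a block Ostc was negative too (edgeR adjusted p = 0.0453).

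Set beside the promoter windows shown above, the 10 genes with an ERSE or ERSE-II were 5 higher and 0 lower with 25HC at rest, where 14.8% and 11.4% of all tested genes were. With PAM3 they were 0 higher and 3 lower (Calr, Creld2, Dnajb11), where 21.5% and 23.6% of all tested genes were, so the share lower lay near that of all genes. The 18 genes with a window but neither element were 7 higher and 0 lower at rest, and 6 higher and 2 lower with PAM3. The 7 genes without a window, Hyou1 and Manf among them, were 5 higher and 0 lower at rest, and 1 higher and 0 lower with PAM3. The interaction was negative by the test for 5 of the 10, 6 of the 18 and 4 of the 7, against 15.8% of all tested genes, with medians of -0.89, -0.15 and -0.53 log2 units. The 18 include Xbp1, Ern1, Eif2ak3, Dnajb9, Edem2 and Edem3, the 6 that rose with 25HC under PAM3. The differences among these sets were not tested.

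**Figure D4:**
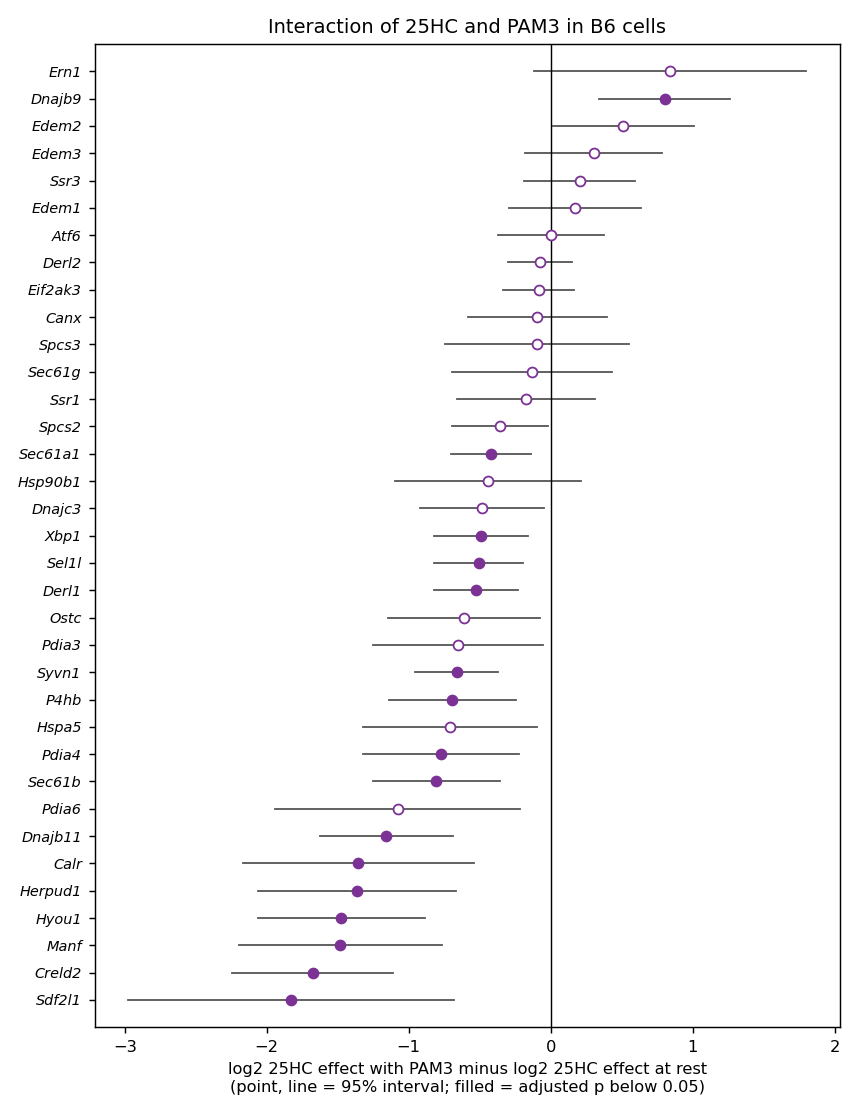
Each point is a gene's interaction, its log2 25HC effect with PAM3 minus its log2 25HC effect at rest, with the 95% interval as a line; filled points have an adjusted p below 0.05. The filled points lie at negative values from Sdf2l1 (-1.83) to Sec61a1 (-0.42), with Dnajb9 (0.80) the exception.

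Seen from the other side, PAM3 raised 16 of 35 genes in 25HC-treated B6 cells and lowered 0, by the edgeR test, against 28.5% and 30.4% of all tested genes. At an unadjusted p below 0.05 1 gene was lower, and 1 by DESeq2, Sdf2l1 (DESeq2 adjusted p = 0.0417). The median log2 fold change was 0.35, against -0.02 over all tested genes. The groups did not overlap for 20 genes that were higher and 4 that were lower with PAM3, patterns of 36.4% and 36.2% of all tested genes. The entry genes rose in 7 of 8 cases, all but Sec61b, while 2 of 11 chaperones did, Canx and Dnajb9. Calr, Sdf2l1 and Pdia3 had negative values (-0.51, -0.83 and -0.31) that did not pass. They passed with only the 2 groups in the fit, or without mouse 2 of every group (edgeR adjusted p = 0.00206 to 0.0328). The fit of only the 2 groups also called the chaperones Hyou1 (log2 0.40), Manf (0.36) and Dnajc3 (0.22) higher (edgeR adjusted p = 0.00883 to 0.0457).

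Derl2 went from 71.6, 65.2 and 68.3 CPM to 108, 105 and 107 CPM in these cells (log2 0.64 ± 0.07, edgeR adjusted p = 3.5e-06), the smallest p. Dnajb9 went from 45.7, 45.1 and 47.9 CPM to 114, 104 and 117 CPM, 2.42-fold (edgeR adjusted p = 5.1e-06). Ssr3, a translocon-associated subunit, went from 289, 281 and 287 CPM to 500.1, 485 and 529 CPM (log2 0.82 ± 0.13, edgeR adjusted p = 6.0e-05). None of these overlapped. Hspa5 was at 2062, 1921 and 2098 CPM at rest and at 1945, 2247 and 2123 CPM with PAM3, which overlap. 13 of the 16 calls held without any 1 library. Canx (edgeR adjusted p = 0.0529 to 0.0663) lost its call without any 25HC-treated resting mouse or PAM3 mouse 3 of the treated cells. Ern1 (0.0506 to 0.097) lost it without any 1 of the 6 libraries, and Edem3 (0.0505 to 0.0618) without resting mouse 2 or PAM3 mouse 1 or 3 of the treated cells. Of the 64 related genes 34 were higher (53.1%) and 9 lower (14.1%), against 28.5% and 30.4% of all tested genes.

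**Figure D5:**
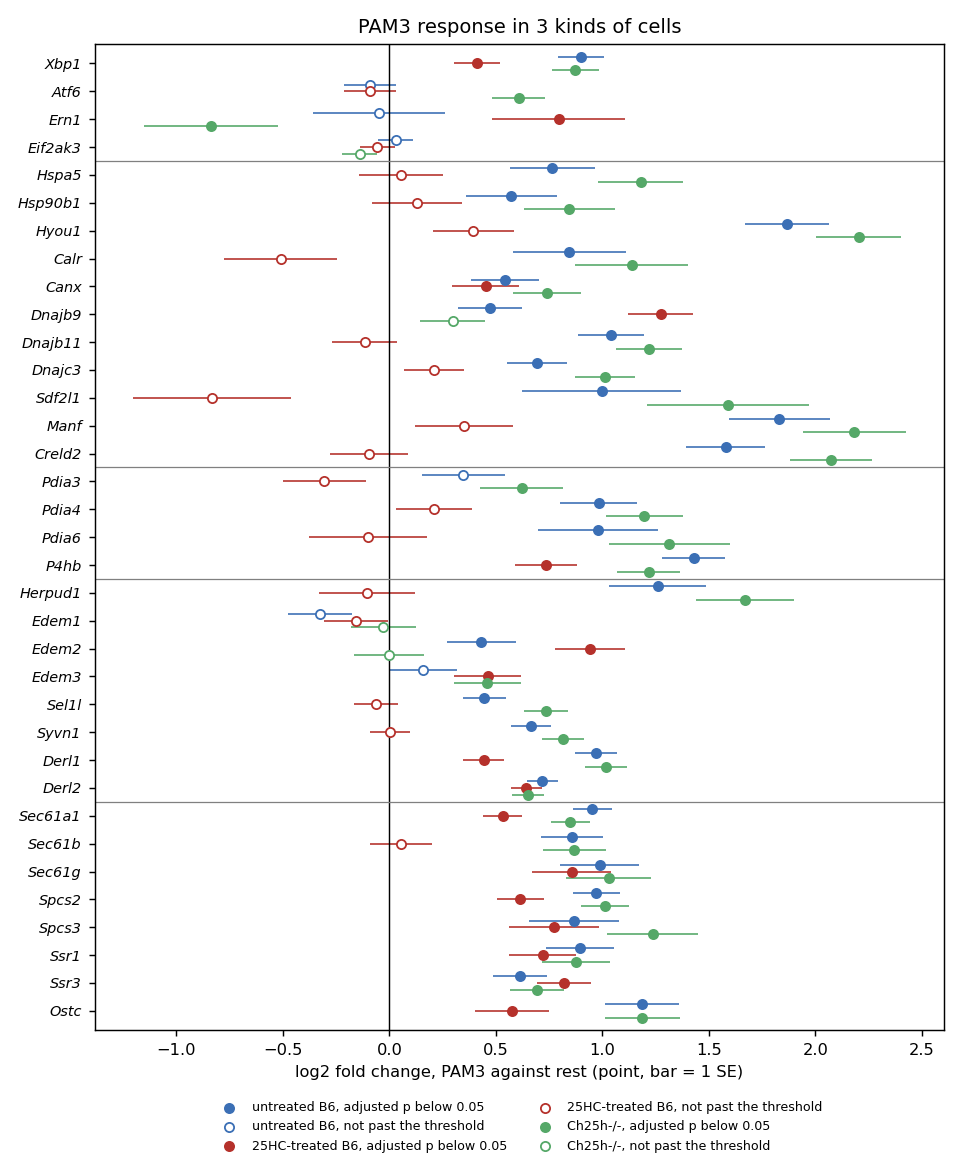
Points are log2 fold changes of PAM3 against rest for each of the 35 genes in untreated B6, 25HC-treated B6 and Ch25h-/- cells, bars are 1 SE and filled points have an adjusted p below 0.05. Chaperones such as Hyou1, Manf and Creld2 lie far to the right in untreated B6 and Ch25h-/- cells and between -0.10 and 0.39 in 25HC-treated cells.

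The last question was whether these genes differed in cells without Ch25h. The counts hold no measure of 25HC itself, so how far its level differed between the genotypes is not known here. At rest 0 of 35 were higher and 0 lower in Ch25h-/- than in B6 cells by the edgeR test, where 0% and 0.00785% of all tested genes were. At an unadjusted p below 0.05 1 gene was higher, Dnajb9 (edgeR adjusted p = 0.892), and DESeq2 called 0. The 95% interval of the log2 difference lay within 1 unit of 0 for 33 of the 35. Hspa5 was at 1142, 707 and 1104 CPM in Ch25h-/- cells and at 1396, 795 and 1150.0 CPM in B6 cells, overlapping. Xbp1 was at 137, 141 and 130.1 CPM against 163, 120.2 and 140.2 CPM, also overlapping. Over the 35 genes 0 had groups that did not overlap, against 4.69% higher and 5.49% lower of all tested genes.

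With PAM3, 0 genes were higher and 0 lower in Ch25h-/- cells by the edgeR test, where 0.0471% and 0.126% of all tested genes were. At an unadjusted p below 0.05 4 were higher and 1 lower. The gene nearest the threshold was Atf6, at 236, 327 and 256 CPM in Ch25h-/- cells and 186, 211 and 172 CPM in B6 cells, which do not overlap (log2 0.53 ± 0.12, edgeR adjusted p = 0.0808). DESeq2 called it higher (adjusted p = 0.00399), and it was the 1 gene DESeq2 called. Without Ch25h-/- PAM3 mouse 1 its edgeR adjusted p was 0.0312. The interval of the log2 difference lay within 1 unit of 0 for 32 of the 35 genes. The libraries did not overlap for 4 genes higher and 2 lower in Ch25h-/- cells, against 7.13% and 13.3% of all tested genes.

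In Ch25h-/- cells PAM3 raised 30 of 35 genes and lowered 1, by the edgeR test, against 29.9% and 32.1% of all tested genes, with a median log2 change of 0.87 against -0.04. The groups did not overlap for 31 genes higher and 1 lower with PAM3, as for 33.2% and 33.8% of all tested genes. Hyou1 went from 110.4, 81.8 and 109 CPM to 442, 463 and 483 CPM, 4.60-fold (edgeR adjusted p = 3.5e-07). Creld2 went from 21.7, 16.1 and 22.8 CPM to 71.8, 96.2 and 87.6 CPM, 4.21-fold (edgeR adjusted p = 4.5e-07). Derl1 went from 125, 120.3 and 119 CPM to 235, 244 and 257 CPM, 2.02-fold (edgeR adjusted p = 6.3e-07). None of these groups overlapped. Atf6 rose here, from 182, 177 and 179 CPM to 236, 327 and 256 CPM (log2 0.61 ± 0.12, edgeR adjusted p = 0.000551), while Eif2ak3 read 39.2, 45.1 and 38.5 CPM and then 37.5, 37.8 and 36.1 CPM (edgeR adjusted p = 0.155).

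The 1 lower gene was Ern1, at 72.3, 214 and 94.97 CPM at rest and 81.1, 56.6 and 75.7 CPM with PAM3. The groups overlap and mouse 2 at rest is far above the others. Its edgeR adjusted p was 0.0305, and it was 0.4 without that library, 0.101 without PAM3 mouse 2, 0.0537 without PAM3 mouse 3 and 0.0922 with the animal as a block. Edem3 (edgeR adjusted p = 0.0195) was lost (0.0595 to 0.0633) without resting mouse 2 or 3 or PAM3 mouse 1, and the other 29 calls held without any 1 library. Dnajb9 did not pass (0.1) but did with the animal as a block (0.0408) or without resting mouse 2 (0.0244).

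The PAM3 response did not differ between genotypes past the threshold for any of the 35 genes: 0 were higher and 0 lower in the interaction by edgeR, as for 0% of all tested genes, and 0 by DESeq2. At an unadjusted p below 0.05 there was 1, Atf6 (log2 0.70 ± 0.17, edgeR adjusted p = 0.968). The 95% interval of the interaction lay within 1 log2 unit of 0 for 25 of the 35 genes. Its estimate was above 0 for 26 of the 35, among them 10 of 11 chaperones, and for 5811 of the 12741 tested genes. For Hspa5 the interaction was 0.42 with a 95% interval of -0.20 to 1.03. The comparison of Ch25h-/- with B6 shared its B6 libraries with the comparisons of 25HC, so their values stand side by side and are not correlated here. At rest, neutrophil markers summed to 12.3 to 47.7 CPM in Ch25h-/- and 3.77 to 5.65 CPM in B6 libraries. Ltf and Ngp made up most of the Ch25h-/- sums, and the part of these markers was not tested.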

How the data were processed

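Gene counts of 18 libraries were used as deposited by the authors, 1 raw count per gene and library. Per the submitters' processing notes, FastQC 0.11.9 checked the reads, GSNAP aligned them to GRCm38 (mm10), and featureCounts (Subread 1.5.2) and edgeR 3.26.8 followed. Strand setting, handling of multi-mapping reads and annotation release were not given in the sources used here. Genes with near-identical copies or antisense neighbours therefore have uncertain values.

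The count test was the quasi-likelihood F test of edgeR 4.0.16 (R 4.3.3, limma 3.58.1), robust and two-sided, on 12741 of 30530 genes kept by filterByExpr. The fit had TMM scaling and 1 mean per group over all 18 libraries. P-values were adjusted by Benjamini-Hochberg across the tested genes and called at 0.05. A standard error is the absolute log2 fold change over the square root of F (12 residual degrees of freedom). CPM used TMM-scaled totals. Exon lengths and positions came from GENCODE M21 and promoters from RefSeq (GRCm38.p6). The scripts, which also used Python 3.11.15 with numpy 2.4.6 for tables and matplotlib 3.10.9 for figures, were tested on simulated data.

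Genes with values in every library were the 4 genes of the sensor group, Hspa5, and those of smallest adjusted p. These were up to 8 in each 25HC comparison, the PAM3 response of untreated B6 and the 25HC interaction, and up to 3 in each other comparison. Edem1 and single PERK outputs were added after their values were seen. The genes, lists and tests were chosen with earlier results of these data known.

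A mouse number is given in the labels of every sample, so libraries of 1 genotype with the same number were taken as from the same animal, and the animal was a block in an alternative fit. Deviations from group means correlated between same-numbered untreated and 25HC-treated B6 libraries with r = 0.448, 0.581 and 0.348 at rest and 0.406, 0.377 and -0.162 with PAM3, and between resting and PAM3 untreated B6 libraries with r = 0.226, 0.306 and -0.0777, so number 3 did not deviate together there. Across genotypes r was 0.574, 0.705 and 0.327 at rest. Alternatives were DESeq2 size factors, the Wald test of DESeq2 1.42.0, tests on all genes or on those at 1 CPM in 3 libraries, fits of the compared groups alone, each library left out, and mouse 2 left out of every group.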

Additional observations from a re-analysis of the deposited data

Results flagged for a closer look

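For 16 of the 35 genes the effect of 25HC differed between resting and PAM3-stimulated B6 cells by a test of the difference itself (edgeR interaction, adjusted p below 0.05). It was negative for 15 and positive for 1, against 15.8% and 12.5% of all tested genes. The interaction, the log2 effect with PAM3 minus the log2 effect at rest, was -1.83 for Sdf2l1, -1.68 for Creld2, -1.48 for Manf, -1.47 for Hyou1, -1.36 for Calr, -1.36 for Herpud1 and -1.16 for Dnajb11. It was -0.81 for Sec61b, -0.77 for Pdia4, -0.69 for P4hb, -0.66 for Syvn1, -0.53 for Derl1, -0.51 for Sel1l, -0.49 for Xbp1 and -0.42 for Sec61a1. Dnajb9, at 0.80, was the 1 gene with a larger effect under PAM3. Of the 16, 10 kept the call without any 1 library, and Sdf2l1, Pdia4, P4hb, Sel1l, Xbp1 and Sec61a1 each lost it without at least 1. Creld2 and Dnajb11 were called higher with 25HC at rest and lower with 25HC under PAM3. Without some single libraries the Creld2 call under PAM3 and the Dnajb11 call at rest were lost. Xbp1 and Sec61a1 were called higher in both settings, with the smaller effect under PAM3.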

How the results depend on the processing

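With DESeq2 size factors in place of TMM every count of genes called was as reported. Without a filter on low counts 12 genes were higher with 25HC at rest in place of 17, 10 in place of 15 had a negative 25HC interaction (Xbp1, Pdia4, P4hb, Sel1l and Sec61a1 were lost), and 0 in place of 1 were lower with PAM3 in Ch25h-/- cells; the filter at 1 CPM gave 1 gene lower with PAM3 in untreated B6 (0 as reported). The DESeq2 Wald test gave 1 lower with PAM3 in untreated B6 and 1 in 25HC-treated B6, each 0 as reported. With PAM3 it gave 1 higher in Ch25h-/- than B6 cells, also 0 as reported. It added Pdia3 and Pdia6 as lower and Sec61g as higher with 25HC under PAM3 (DESeq2 adjusted p = 0.0248 to 0.0478). In the 25HC interaction it added Pdia6 as negative (DESeq2 adjusted p = 0.0321). With only the compared groups in the fit, 8 genes were lower with 25HC under PAM3, and Edem1 and Ssr1 were added as higher. With PAM3 in 25HC-treated B6 that fit gave 3 lower and added Hyou1, Manf and Dnajc3 as higher. It gave 0 lower with PAM3 in Ch25h-/- cells, and 2 genes had a positive 25HC interaction. Without mouse 2 of every group 10 genes were lower with 25HC under PAM3, while Edem1 and Ssr1 were added as higher and Sec61a1 was lost. In the same setting 2 were lower with PAM3 in untreated B6 and 3 lower with PAM3 in 25HC-treated B6. With PAM3, 1 was higher in Ch25h-/- than B6 cells. There Edem2 turned from -0.00 to 0.31 log2 with PAM3 in Ch25h-/- cells (edgeR adjusted p = 0.0251). Other changes of single calls under these settings are not all listed. The causes were not tested. Leaving out 1 library moved the count lower with 25HC under PAM3 between 3 and 6, the negative 25HC interactions between 9 and 19, the count lower with PAM3 between 0 and 1 in untreated B6 and between 0 and 1 in Ch25h-/- cells, and the count higher in Ch25h-/- cells with PAM3 between 0 and 1. The animal as replicate block left 0 genes lower with PAM3 in Ch25h-/- cells and changed no call besides those given in the report. Across genotypes with PAM3, same-numbered libraries correlated with r = 0.322, 0.459 and 0.0949, so they share only a number there; with that number as replicate block Atf6 was higher in Ch25h-/- cells (edgeR adjusted p = 0.0404), 1 gene in place of 0.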
